A study of Arabidopsis thaliana with 8 samples.

Results

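The regions described here are 707 binding regions of CONSTANS (CO) that lay far from protein-coding genes and were of moderate strength. They were chosen from the 3210 peaks of the authors' filtered list on chromosomes 1 to 5. A peak was a member when its fold enrichment over the local background was below 15 and its summit, the base with the highest signal, lay more than 1000 bp from every nuclear protein-coding gene. The members made up 22.0% of the nuclear filtered peaks and 24.3% of the 2909 moderate ones. Fold enrichment and distance from genes chose the members, so both are given as a description.

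The peaks came from chromatin immunoprecipitation and sequencing (ChIP-seq) with an anti-CO antibody on Arabidopsis thaliana seedlings, harvested 7 days after germination in long days. The 35S:CO seedlings overexpress CO from the cauliflower mosaic virus 35S promoter, which is active in most tissues, whereas the promoter of CO itself acts mainly in the vasculature. The co-10 seedlings carry a mutation in CO and were the control for antibody signal. For each of 35S:CO and co-10 there were 2 immunoprecipitates and 2 inputs, all fixed with 1% formaldehyde for 20 min and 1 mM of the protein crosslinker DSG for 10 min. Each genotype had 1 peak list, with peak names that mark both replicates together. The spread between replicates could therefore not be measured, and no difference below has a replicate check or a test.

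CO is a B-box zinc finger protein that accumulates in the evening of long days and activates the florigen gene FT in the vascular tissue of leaves. It contacts DNA through its CCT domain, in complexes with NF-Y subunits, at short CO-responsive elements and CCAAT boxes. The genome of Arabidopsis is compact. Sequence far from genes falls into wider spaces between genes on the chromosome arms, where distal enhancers and microRNA genes can lie, and into the gene-poor sequence around the centromeres, which is rich in transposable elements and their remnants.

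The members covered a wide range of distances, with many near the limit that defined them. The median distance to the nearest protein-coding gene was 2098 bp, with quartiles of 1412 and 4285 bp, and the distances ran from 1002 to 209613 bp. In all, 325 members lay at most 2000 bp from a gene, 79 lay beyond 10000 bp and 12 beyond 50000 bp. The whole peak came within 1000 bp of a gene in 115 members and overlapped one in 2. The members nearest the limit lay 1002, 1004, 1004, 1004 and 1005 bp from a gene, and the nearest moderate peaks on its other side 999, 984, 984, 979 and 977 bp. The peak at 1002 bp (chromosome 5, 5173837 to 5174133, TAIR10) was nearest to CO itself, with a fold enrichment of 3.36, and its summit lay in the long non-coding RNA gene AT5G15845. It was 1001 bp from a co-10 peak.

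Members became sparser with distance. The sequence over 1000 bp from genes came to 30.4 Mb and held 23.3 members per Mb. Moderate peaks inside genes numbered 17.4 per Mb of gene sequence, and those in the 1000 bp on either side of genes, the gene flanks, 44.6 per Mb. Beyond the flanks the density was 36.6 per Mb at 1001 to 2000 bp, 26.8 per Mb at 2001 to 5000 bp and 17.4 per Mb at 5001 to 10000 bp. It was 9.70 per Mb at 10001 to 50000 bp and 6.66 per Mb farther away. These bands held 325, 230, 73, 67 and 12 members. Over the whole genome, the members within 2000 bp of a gene were thus denser than the moderate peaks inside genes, and those beyond 10000 bp were sparser.

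This gradient was not even along the chromosomes. The genome was divided into 240 windows of 500 kb, of which 40 were called gene-poor because they held fewer than 50% of the median number of protein-coding genes, which was 130.5 per window. The last window of a chromosome is shorter. The 40 include such a window at the end of chromosome 4, from 18500001, with 32 genes, 6.687 kb of far sequence and no member. Far sequence was about equally divided, with 50.9% of it in the gene-poor windows. The members were not: 153 of them, or 21.6% (Wilson 95% interval 18.8 to 24.8), lay there. Their density was 9.90 per Mb in gene-poor windows and 37.2 per Mb in the other windows. These densities count all far sequence, and how much of it reads could be placed on was not determined. The authors' filter had also removed 56 far moderate peaks, 42 of them in gene-poor windows. Outside the gene-poor windows the density by distance was 41.3, 34.3, 29.9 and 21.7 per Mb in the bands ending at 2000, 5000, 10000 and 50000 bp, the last of them from only 8 members, and moderate peaks inside genes numbered 17.2 per Mb. In the gene-poor windows the same bands held 9.74, 11.4, 12.4 and 9.02 members per Mb, with no steady fall, and the first of these values rests on 13 members. Moderate peaks inside genes numbered 20.9 per Mb there. Every far band outside the gene-poor windows was therefore above the density inside genes, and every far band within them below it.

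**Figure D1:**
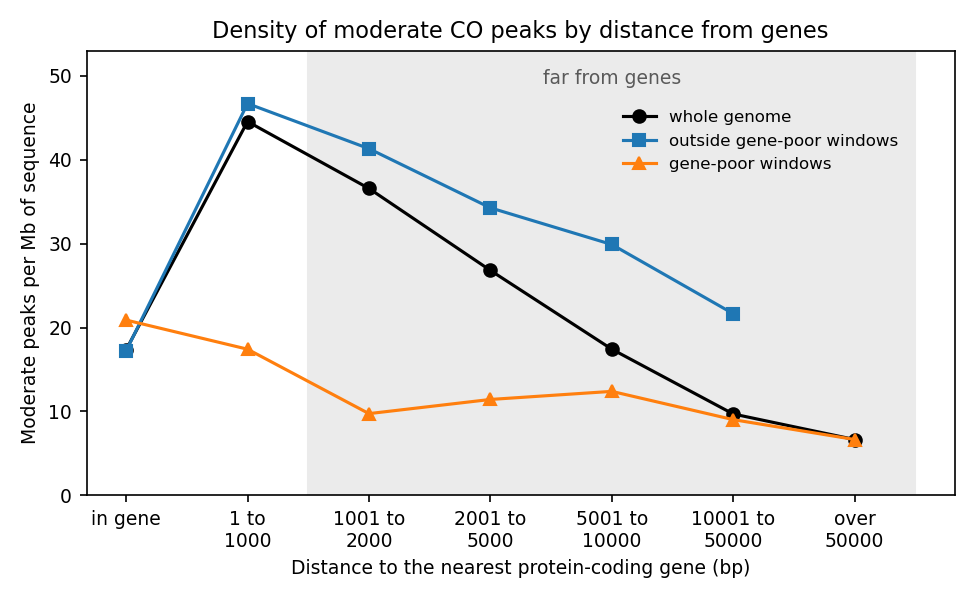
Moderate peaks per Mb of sequence (vertical axis) by distance of the sequence from the nearest protein-coding gene (horizontal axis), for the whole genome, the 200 windows outside gene-poor regions and the 40 gene-poor windows. The grey area marks the distances of the members; the whole-genome line falls there to 6.66 per Mb in the farthest band.

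The 707 members were weak to moderate within their own range. Their median fold enrichment was 4.78, with quartiles of 3.98 and 6.60 and a range of 2.46 to 14.8, against a median of 4.85 in the 1119 moderate peaks inside genes and 5.69 in the 1083 in gene flanks. A fold enrichment of at least 10 was reached by 65 members (9.19%), by 9.12% of the gene peaks and by 14.2% of the flank peaks. The strongest members, just inside the limit of 15, had fold enrichments of 14.8, 14.7, 14.7, 14.7 and 14.6, and the weakest far peaks outside it 15.2, 15.3, 15.3, 15.5 and 15.8. The median width was 422 bp in members (297 to 1854 bp), 440 bp in gene peaks and 473 bp in flank peaks. Stronger members were wider, with a Spearman correlation of 0.62 between fold enrichment and width across the 707 peaks, which share their libraries and depth.

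The fragments behind a peak were few. The pileup counts the fragments that cover the summit, and the background is the count expected at that base. Both were recovered from the deposited fold enrichment and p-value of each peak. The median pileup was 18 fragments and the median background 2.93, and pileups ran from 5 to 84. A count of 18 has an exact Poisson 95% interval of 10.7 to 28.4, and a count of 5 one of 1.62 to 11.7, which cover counting error only. There were 68 members with a pileup under 10. The −log10 q-value was at least 10 in 244 members and under 3 in 61.

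Loci that the gene table classes as pseudogenes were the annotation most often found at a member. In Arabidopsis annotations, many loci of this class are remnants of transposable elements. The summit lay in such a locus in 168 members, or 23.8% (20.8 to 27.0), while these loci covered 31.6% of the far sequence. Of the 168, 160 lay in pseudogenes and 8 in transcribed pseudogenes. Within gene-poor windows the balance was the other way: 75.2% (67.8 to 81.3) of the 153 members there lay in pseudogene loci, which covered 44.0% of the far sequence of those windows. Outside them the shares were 9.57% (7.39 to 12.3) of 554 members and 18.8% of the sequence. Pseudogene loci thus held more of the members than of the far sequence in gene-poor windows and less of the members elsewhere.

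Members in pseudogene loci were weak. Their median fold enrichment was 3.98, with quartiles of 3.55 and 4.59, against 5.34 in the other 539 members. The median pileup was 10 fragments over a background of 1.68 in pseudogene members and 21 over 3.17 in the others, so both the signal and its local background were low. Their median width was 360 bp, against 439 bp in the others. A single pseudogene member reached a fold enrichment of 10, on chromosome 5 from 14716161 to 14716687. It stood at 10.3 in AT5G37175, 1698 bp from the sucrose synthase gene SUS5. The next lay on chromosome 3 from 15913066 to 15913769 in AT3G44205, at 8.45, and 1345 bp from NEK6, a gene for a protein kinase. The third, in AT2G13060 on chromosome 2 (5376620 to 5377014), stood at 6.21 and 543 bp from a co-10 peak. Copies of such loci can be nearly identical, and how reads were divided among copies is not given in the sources used here.

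**Figure D2:**
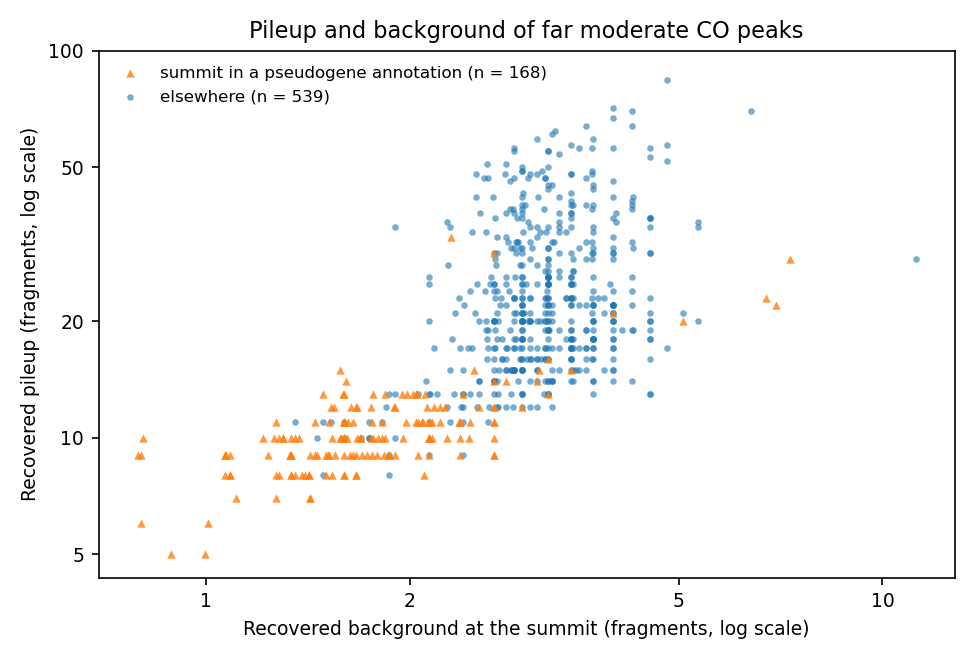
Recovered pileup (vertical axis, fragments, log scale) against recovered background (horizontal axis, fragments, log scale) for each of the 707 members; triangles are the 168 with the summit in a pseudogene locus and circles the other 539. Most triangles sit at the lower left, with a median of 10 fragments over 1.68, below the circles with 21 over 3.17.

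Strength and surroundings moved together over the whole set. Among the 184 members with a fold enrichment under 4, 48.4% had the summit in a pseudogene locus. That share was 31.4% of the 207 members from 4 to 5, 7.45% of the 161 from 5 to 7, 1.11% of the 90 from 7 to 10, and 1.54% of the 65 from 10 to 15. The share in gene-poor windows was 38.6% in the weakest class and 4.62% in the strongest. Median distance to the nearest gene was 3272 bp in the weakest class and 1721 bp in the strongest. Non-coding RNA genes held the summit of 1.63%, 5.31%, 11.8%, 6.67% and 13.8% of the members in these classes, lowest in the weakest and highest in the strongest with no steady rise between. Another filtered peak lay within 1000 bp of 19.6% of the weakest members and 43.1% of the strongest.

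**Figure D3:**
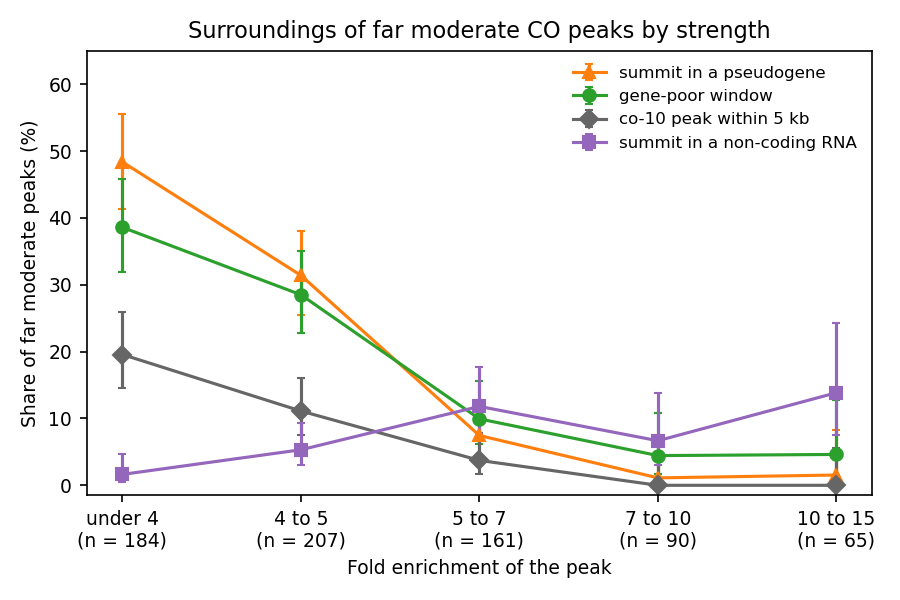
Share of members (vertical axis, percent, with Wilson 95% intervals) in a pseudogene locus, a gene-poor window, within 5 kb of a co-10 peak or in a non-coding RNA gene, by fold enrichment class (horizontal axis). The pseudogene share is 48.4% in the weakest class and 1.54% in the strongest.

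Peaks of the co-10 control lay near some of the weak members. The authors' filter had taken out 35S:CO peaks that overlapped a co-10 peak, so no member overlaps one. A co-10 peak lay within 5 kb of 65 members, or 9.19% (7.28 to 11.6), against 1.61% (1.02 to 2.53) of the moderate gene peaks and 0.462% (0.197 to 1.08) of the flank peaks. Most co-10 peaks were themselves far from genes, 230 of the 312 nuclear ones. The share of far sequence within 5 kb of a co-10 peak was not computed. Whether 9.19% exceeds what position alone would give is therefore not known. Of the 65 members, 59 lay in pseudogene loci and 50 in gene-poor windows. None of the 155 members with a fold enrichment of 7 or more had a co-10 peak within 5 kb. The nearest cases were a member on chromosome 2 from 5383468 to 5383764 in AT2G13080, 10 bp from a co-10 peak at a fold enrichment of 3.38, and one on chromosome 5 from 11846003 to 11846533, 31 bp away at 3.83. The next was on chromosome 3 from 13447068 to 13447423 in AT3G32899, 106 bp away at 4.0. Among all 35S:CO peaks that met the rule before filtering, 56 of 763 (7.34%, 5.70 to 9.41) had been removed, against 13 of 1132 inside genes (1.15%) and 7 of 1090 in flanks (0.642%). Of the 56 removed, 34 lay in pseudogene loci and 42 in gene-poor windows. The part of unspecific antibody signal in the members that were kept was not tested.

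The farthest members were of this weak kind. The member on chromosome 5 just named lay 209613 bp from the nearest protein-coding gene, farther than any other, and 159 bp from the pseudogene AT5G32228. A pair on chromosome 3, from 13885643 to 13886355 and from 13890152 to 13890497, lay 134466 and 130447 bp from AT3G33187, and both had the summit in the pseudogene AT3G33115. Their fold enrichments were 4.82 and 4.28, with pileups of 10 and 9 fragments. The next were on chromosome 4 from 3993812 to 3994423 in AT4G06714, at 3.62 and 69736 bp, and on chromosome 5 from 12009145 to 12009531 in AT5G32402, at 4.12 and 67405 bp. The chromosome 4 member had a background of 7.29 fragments, well above the median of 2.93. Of the 12 members beyond 50000 bp, 10 lay in pseudogene loci, 8 had a co-10 peak within 5 kb and none exceeded a fold enrichment of 4.82. All 12 lay in gene-poor windows. Of all 153 members in such windows, 75.2% lay in pseudogene loci and 32.7% had a co-10 peak within 5 kb. Median fold enrichment was 3.84 in the 12 and 4.07 in the 153. The share of sequence beyond 50000 bp in pseudogene loci or near co-10 peaks was not computed.

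**Figure D4:**
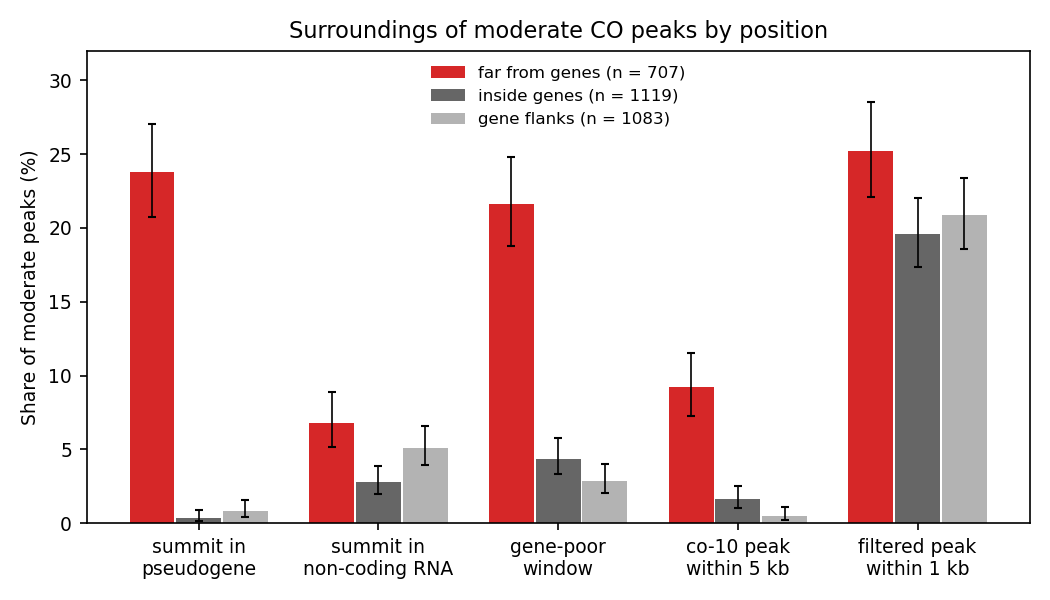
Share of moderate peaks (vertical axis, percent, with Wilson 95% intervals) in each kind of surroundings (horizontal axis), for the 707 members, the 1119 peaks inside genes and the 1083 in gene flanks. Low shares in pseudogene loci inside genes and flanks go with the position itself, since those annotations seldom overlap genes.

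Non-coding RNA genes held 48 summits, or 6.79% (5.16 to 8.89) of the members, and covered 2.41% of the far sequence. This coverage is over all far sequence, 50.9% of it in gene-poor windows, where 21.6% of the members lay. It was not split by window class, so the 2 shares are not matched for position. Long non-coding RNA genes accounted for 33 of the 48 summits, genes of the table's miscellaneous RNA class for 7, of its other non-coding RNA class for 6, and microRNA genes for 2. No summit lay in a tRNA, snoRNA, snRNA, rRNA or antisense RNA gene, of which 132, 45, 11, 3 and 0 have their midpoint over 1000 bp from a protein-coding gene. For most of these classes few genes could therefore have held a member. The members in non-coding RNA genes had a median fold enrichment of 5.71 and a median pileup of 23, and 4 of the 48 lay in gene-poor windows. The strongest was on chromosome 1 from 26036302 to 26037130, in AT1G69252, at 14.7. Its pileup of 84 fragments was the highest of any member, and a neighbouring peak at 6.87 followed after 485 bp. On chromosome 2 a member from 6876084 to 6876875 lay in AT2G06475 at 14.4, and 1282 bp from SQN, which encodes a cyclophilin that promotes microRNA activity. The long non-coding RNA genes AT4G04995 and AT1G08237 held members of 11.5 (chromosome 4, 2447721 to 2448567) and 11.3 (chromosome 1, 21645214 to 21646107). In the miscellaneous class, AT1G09585 held one of 13.0 (chromosome 1, 17763336 to 17764083), AT4G02975 one of 10.9 (chromosome 4, 9608195 to 9608802) and AT5G00610 one of 8.48 (chromosome 5, 20094928 to 20095419).

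The best known of these RNAs is TAS3, the precursor of the trans-acting small RNAs that restrain auxin response factors. Its member, on chromosome 3 from 5862158 to 5862863, was enriched 10.4-fold, with 40 fragments at the summit where 2.93 were expected. The nearest protein-coding gene, scpl33, was 3207 bp away. Another filtered peak, at 8.19, lay 612 bp from the member. The remaining one of the 3 strongest in its class was in AT4G04223, at 6.87 on chromosome 4 from 2037419 to 2037953, in a gene-poor window.

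MicroRNA genes lay within 2 kb of 16 members. These 16 were 2.26% (1.40 to 3.64) of the members, while 1.43% of the far sequence lies that close to a microRNA gene, a value inside the interval. They fell at 15 of the 326 nuclear microRNA genes, 13 of which were among the 125 whose midpoint is over 1000 bp from a protein-coding gene. The families below were picked after their values were seen. The strongest 2 members of the 16 were both at MIR157 genes, whose microRNA, a close relative of miR156, holds down the SPL genes that promote flowering and the adult phase. At MIR157d, a member on chromosome 1 from 18027792 to 18028488 stood at 14.7, with a pileup of 59 over 3.09, and its summit was 1149 bp from the microRNA gene. A second, from 18027012 to 18027318, stood at 4.48 with its summit 181 bp away. At MIR157c, the member on chromosome 3 from 6244488 to 6245603 stood at 12.5, with a pileup of 56 over 3.57 and its summit 581 bp away.

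The other microRNA genes had weaker members. MIR160a, whose product targets auxin response factors, had a member of 6.86 at 925 bp (chromosome 2, 16338877 to 16339692). MIR169b, of the family that targets NF-YA subunits, had one of 6.36 at 1783 bp (chromosome 5, 8529315 to 8529673). MIR159a, which restrains GAMYB-like factors, had one of 6.06 at 360 bp (chromosome 1, 27713561 to 27714037). MIR319c, which targets TCP genes, had one of 4.98 at 1614 bp (chromosome 2, 17027792 to 17028406). MIR166a, which targets class III HD-ZIP genes, had one of 4.44 at 82 bp (chromosome 2, 19175794 to 19176171). All of these lay between 4.44 and 6.86, below the MIR157c member and the stronger MIR157d one. The summits inside microRNA genes were at MIR10515, at 5.71 on chromosome 5 from 951130 to 951600, and at MIR854d, at 3.86 on chromosome 5 from 11689647 to 11690103. The MIR854d summit also lay in the pseudogene AT5G31719, and 487 bp separated that peak from a co-10 peak.

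More members lay over 1000 bp from every annotated locus than had the summit inside a pseudogene or non-coding RNA locus. For 399 members, or 56.4% (52.8 to 60.0), no gene, pseudogene or non-coding RNA gene of the table came within 1000 bp of the summit. The share of the far sequence that lies over 1000 bp from every such locus was not computed. Whether 56.4% is above or below that share is therefore not known. These 399 had a median fold enrichment of 5.44, a pileup of 22 and a distance of 1767 bp to the nearest protein-coding gene. Of the 399, 18 lay in gene-poor windows and 1 had a co-10 peak within 5 kb. These low counts follow largely from the choice of the 399, which leaves out members with a pseudogene within 1000 bp. Such a pseudogene was present for 131 of the 153 members in gene-poor windows and 63 of the 65 near a co-10 peak. Of the 10 strongest members, the one farthest from a protein-coding gene was among them, on chromosome 3 from 4839921 to 4841446, at 14.5 and 1526 bp wide. Its nearest gene, 6997 bp away, was NCED3, which encodes a key enzyme of abscisic acid synthesis, and the nearest non-coding RNA gene was 15526 bp and the nearest pseudogene 25394 bp away.

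The other leading members on the arms lay nearer to genes. The strongest of all, at 14.8 on chromosome 4 from 14821856 to 14822518, was 1614 bp from XTH24, a cell wall xyloglucan-modifying enzyme. A member at 14.6 on chromosome 2 from 17245151 to 17245834 was 4901 bp from BOP2, a regulator of leaf and flower patterning, 127 bp from the long non-coding RNA gene AT2G09255, and 147 bp from another far peak at 11.8. Further members among the 10 strongest lay 2823 bp from AT1G69760 (chromosome 1, 26243384 to 26243907, at 14.7), 1509 bp from AT2G37220 (chromosome 2, 15632480 to 15633359, at 14.0) and 1089 bp from AT1G62970 (chromosome 1, 23321907 to 23322427, at 14.0). None of the 10 strongest members was in a gene-poor window or had a co-10 peak within 5 kb.

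Width singled out other regions. The widest member, 1854 bp on chromosome 3 from 2815200 to 2817053, was weak, at 3.99 from a pileup of 12, with its summit in the pseudogene AT3G09170. The next widest were 1845 bp on chromosome 1 from 2990414 to 2992258, at 12.7, and 1777 bp on chromosome 5 from 1950964 to 1952740, at 9.76. Both peaks overlapped a protein-coding gene. Their summits lay 1029 bp from AT1G09250 and 1013 bp from AT5G06380, just beyond the distance limit. A member of 1552 bp on chromosome 1 from 4654668 to 4656219, at 10.1, lay 290 bp from a filtered peak of 30.2.

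Members often had company. Another filtered peak lay within 1000 bp, edge to edge, of 178 members, or 25.2% (22.1 to 28.5), against 19.6% (17.4 to 22.0) of moderate gene peaks and 20.9% (18.6 to 23.4) of flank peaks. The members' interval overlapped that of the flank peaks and lay just above that of the gene peaks. The neighbour was itself far from genes for 122 of the 178, in a flank for 45 and inside a gene for 11. It was stronger than the member in 92 cases, and 15 or more in fold enrichment in 19. Members with such a neighbour had a median fold enrichment of 5.48 and those without one 4.64.

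The nearest protein-coding genes were 611 in number, and 143 of them, or 23.4% (20.2 to 26.9), also had a filtered summit of their own, in the gene or in its flank. Over all 27444 protein-coding genes that share was 11.2%. The 2 sets are unlike, since a gene with no far sequence beside it could not be nearest to a member. The share among genes that border far sequence was not computed. Genes with several members were few, 77 with at least 2 and 15 with at least 3. The most, 6, lay 6439 to 20020 bp from AT2G01023, with fold enrichments of 3.30 to 5.58. ERF15, a gene for an ethylene response factor, had 3 members at 2086 to 4719 bp, of 5.69 to 8.31, and also a summit of its own. The copper/zinc superoxide dismutase gene CSD2 had 3 at 1400 to 3318 bp, of 3.80 to 9.40, and likewise a summit of its own.

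Flowering and light signalling genes among the nearest genes were picked after their values were seen. FT had a member on chromosome 1 from 24329430 to 24329846, 1718 bp from the gene, at 4.48 from a pileup of 19 over 3.47, beside the flank peak of 10.5 that lay 1120 bp away. Another member, from 24326090 to 24327216, lay 2214 bp from this FT member and was stronger, at 5.15 from a pileup of 22. Its nearest gene was FAS1, 2206 bp away, so it was not counted for FT. TSF, the close relative of FT, had one of 4.06 at 1427 bp (chromosome 4, 10999207 to 10999548) and no summit in the gene or its flank. RAP2.7, also known as TOE1, an AP2-like repressor of FT, had 2 members and no summit of its own. The stronger spanned 12231548 to 12232187 on chromosome 2, 3251 bp from the gene, at 13.3, and the weaker, at 1814 bp, stood at 4.91. SMZ, another repressor of this family, had one of 5.52 at 2467 bp (chromosome 3, 20378712 to 20379169) and no summit of its own. The RAP2.7 member at 13.3 was the strongest of those near these flowering genes.

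Among light and growth regulators, the GATA factor gene GNC had a member of 8.16 at 5614 bp (chromosome 5, 22996848 to 22997388). The phytochrome interacting factor gene PIF7 had one of 3.53 at 1193 bp (chromosome 5, 24641704 to 24642065), 569 bp from a peak of 19.8, and the B-box gene BBX15 one of 3.19 at 3748 bp (chromosome 1, 8929725 to 8930087). The summit of the BBX15 member lay in the pseudogene AT1G25430, with a pileup of 10 and a −log10 q of 2.42. A co-10 peak was 2458 bp from that member. BRC1, a TCP factor gene that restrains branching, had one of 10.9 at 2536 bp (chromosome 3, 6380483 to 6381110), in the long non-coding RNA gene AT3G03705, and no summit of its own. RBCS2B, a small subunit gene of Rubisco, had one of 5.08 at 1004 bp (chromosome 5, 15379276 to 15380167), 392 bp from a peak of 24.1.

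Along the chromosomes, members numbered 199, 146, 124, 84 and 154 on chromosomes 1 to 5, or 28.6, 25.1, 20.0, 16.7 and 24.2 per Mb of far sequence. Chromosome 4 had the lowest density and the lowest median fold enrichment, 4.30, against 4.77 to 5.08 on the others. It also had the largest share of members in gene-poor windows, 31.0% against 16.1% to 25.3% on the others. The same held for members in pseudogene loci, 34.5% against 19.6% to 28.1%. Windows of 500 kb held 0 to 13 members with a median of 2, and 28 windows held none. The windows with most members were 26000001 to 26500000 on chromosome 1, with 13, 12000001 to 12500000 on chromosome 2, with 13, and 5000001 to 5500000 on chromosome 2, with 12. The first had a median fold enrichment of 6.20 and 9 of its 13 members within 1000 bp of another filtered peak. The second had 4.83. The third was gene-poor, with 21 genes, a median of 4.12, 10 members in pseudogene loci and 8 with a co-10 peak within 5 kb. Across the 240 windows, the number of members and of other moderate peaks had a Spearman correlation of -0.06, and the number of members and the length of far sequence one of 0.35.

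**Figure D5:**
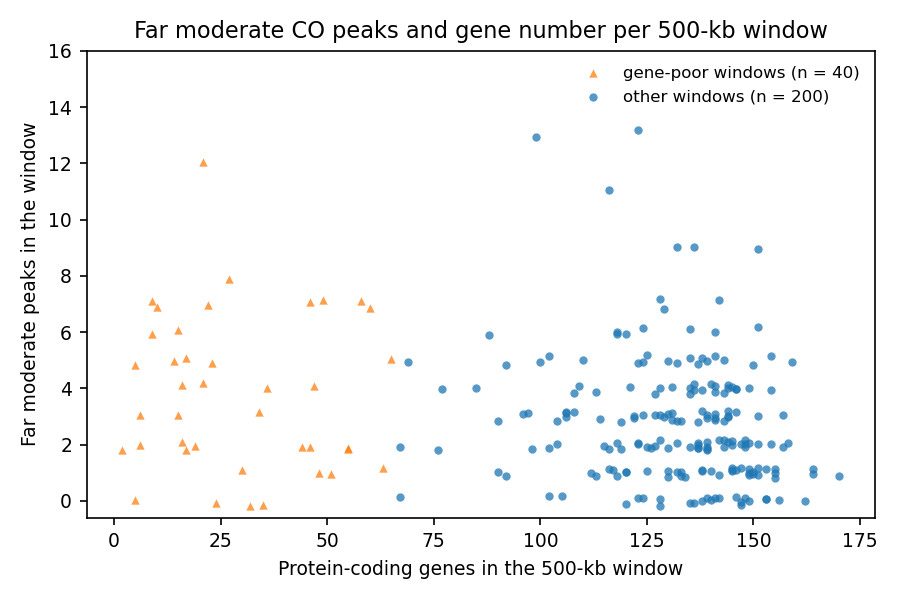
Members per window of 500 kb (vertical axis, points shifted by up to 0.2 to separate them) against protein-coding genes in the window (horizontal axis), for the 40 gene-poor and the 200 other windows. High counts of 12 and 13 occur both in a gene-poor window with 21 genes and in windows with 99 and 123 genes.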

How the data were processed

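CO ChIP-seq was described by 3 peak lists in narrowPeak format that the authors deposited; the submitters' processing notes name TAIR10, FastQC, Bowtie, MACS2 and deepTools, and versions and thresholds are not given in the sources used here. The fold enrichment of a peak is a ratio, and the −log10 p-value and −log10 q-value are the caller's, all as the authors deposited them. A deposited whole-number score repeats the q-value. The deposited summit position was an offset in bp. All 3214 filtered peaks were in the 35S:CO list of 3306; the co-10 list held 380. Sequencing depth per sample is unknown from peak lists.

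Distances were measured from the summit to genes of a RefSeq table of assembly TAIR10.1, whose nuclear coordinates were taken as those of TAIR10. Summits lay in genes in 38.2% of nuclear filtered peaks, and in 59.1% and 58.7% when moved by -5000 and 5000 bp. The table has no strand, and its coordinates are not printed. The end of a chromosome was taken as its last gene or peak.

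Pileups were recovered on the assumption that a fold enrichment is (pileup + 1) / (background + 1) and that its p-value is the Poisson chance of a larger count; whole pileups up to 4999 were tried; 707 of 707 members had a solution within 0.001 of the −log10 p-value. The procedure was tested on simulated data. These values depend on that formula.

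Intervals of shares are Wilson 95% intervals; they cover only counting error and treat peaks as independent. No test was made, as each genotype has 1 pooled list. Regions were named by rank within set classes (strength, width, distance, nearness to co-10 peaks, annotation at the summit and windows with most members); other genes were picked after their values were seen. A region that the ranks would name is not reported here. The members and lists were chosen with earlier results of these data known. The planned motif shares were not computed, as no genome sequence was used here. Python 3.11.15, pandas 2.3.3 and SciPy 1.17.1 were used.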

Additional observations from a re-analysis of the deposited data

How the results depend on the processing

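No paired analysis was possible because the peaks of each genotype come as 1 pooled list without replicate columns; leaving out replicates was not possible for the same reason. The motif alternative was left out because genome sequence was not used here. Of 41 alternatives, 9 left the value within 1.5 times (counts) or within its 95% interval, and 32 moved it. For the median fold enrichment and the median width no interval is given here, and all their alternatives were counted as moved. Stricter limits keep fewer peaks by construction. Wider or narrower gaps and looser overlaps change the counts likewise by definition. The cause of the other movements was not tested.

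A distance limit of 2000 bp left 382 members and one of 5000 bp left 152. With limits of 500, 2000 and 5000 bp, the share in pseudogene loci was 16.7%, 39.0% and 71.7%, the share in gene-poor windows 15.9%, 36.6% and 71.1%, the median fold enrichment 4.99, 4.50 and 4.12, and the median width 439, 402 and 374 bp. The share in non-coding RNA genes was 1.97% at 5000 bp. A −log10 q of at least 5 left 465 members, and one of at least 10 left 244. Under these limits the pseudogene share was 6.88% and 0.82%, the gene-poor share 9.46% and 4.10%, the non-coding RNA share 9.46% and 10.7%, and the share with another peak nearby 30.1% and 33.6%. The share in pseudogene loci thus rose with the distance limit and fell with the q limit.

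Counting any overlap of the peak gave 9.19% in non-coding RNA genes. Windows with under 25% of the median gene number held 13.9% of the members. Another filtered peak lay within 500 bp of 14.3% and within 2000 bp of 37.5%. A co-10 peak lay within 1000 bp of 2.40% and within 10000 bp of 12.2%, and one with a −log10 q of at least 5 lay within 5 kb of 3.25%. Pileups of 5 to 84 fragments limit the precision of each fold enrichment.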

Other observations

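Far peaks of the co-10 list and strong far peaks of 35S:CO can be set beside the members. With no limit on fold enrichment, 230 of the 312 nuclear co-10 peaks had the summit over 1000 bp from protein-coding genes. Their median fold enrichment was 4.78, the same to 3 digits as that of the members, with a median pileup of 9 and background of 1.02. Depth per list is unknown. Of these co-10 peaks 73.0% (67.0 to 78.4) had the summit in a pseudogene locus and 70.0% (63.8 to 75.6) lay in gene-poor windows. The 61 far 35S:CO peaks with a fold enrichment of 15 or more had no summit in a pseudogene locus (0 of 61, Wilson 95% interval up to 5.92%), and 3 of them lay in gene-poor windows. Another filtered peak lay within 1000 bp of 44.3% (32.5 to 56.7) of these strong peaks. Their median distance from a protein-coding gene was 1640 bp.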
